A study of Mus musculus with 4 samples.

Results

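The delphinidin array was set directly against the cyanidin array, so that 2 of the 4 samples of the study were compared and the DMSO control did not enter the ratio. 3T3-L1 is a cloned line of mouse preadipocytes that turns into adipocytes when it is given insulin, dexamethasone and IBMX, and all cells here were in this induction medium. Both compounds were given from day 0 at 100 nM, in medium with 0.1% DMSO, and RNA was taken on day 2, since the sample titles give day 2 while the treatment label speaks of the whole exposure, which ended on a later day. The other cultures received the DMSO vehicle alone or 100 μg/ml of bilberry extract, a mixture rich in anthocyanidins. There was 1 single-dye array per condition, all on 1 slide and in 1 scan, so no difference here has a replicate or a p-value and each one holds for these cultures alone. Of 41174 probes, 23710 were well above background and free of outlier marks on both arrays, and they stood for 13120 named genes. Signals were scaled within each array so that a scaled signal of 1 is the 75th percentile, which stood at 1009 with delphinidin and 1016 with cyanidin before scaling. The ratio is given as log2 of delphinidin over cyanidin, and a probe was counted as past 2-fold when its linear ratio was over 2 or under 0.5.

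Delphinidin and cyanidin are plant pigments of the anthocyanidin class with the same ring system. Delphinidin carries an additional hydroxyl group on its B ring, which makes that ring a pyrogallol, whereas the B ring of cyanidin is a catechol. Induced 3T3-L1 cells first divide again (mitotic clonal expansion) and then, under C/ebp and Ppar γ factors, build up the enzymes and carriers of lipid storage, so day 2 falls where cell cycle genes and early adipocyte genes are both in use. The direct comparison asks which mRNAs differed between cells given either molecule at the same dose and time, and 1 pair of compounds was compared.

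Both profiles were close to each other. The median log2 ratio of the 23710 probes was -0.01, with an SD of 0.31, and the middle 95% of probes lay between -0.50 and 0.60. There were 157 probes higher with delphinidin past 2-fold (0.662% of those measured) and 118 lower (0.498%), together 275 probes or 1.16%. By gene, taking the brightest probe of each, 72 were higher (0.549%) and 77 lower (0.587%), together 1.14%. The same count was 681 probes (2.91%) for delphinidin and DMSO and 656 (2.83%) for cyanidin and DMSO. It was 2057 for delphinidin and bilberry, 2270 for cyanidin and bilberry and 2463 for DMSO and bilberry. The SD of the log2 ratio was 0.31 for the 2 anthocyanidins, 0.42 for either of them against DMSO and between 0.62 and 0.68 for the pairs with bilberry, so of the 6 pairs of arrays delphinidin and cyanidin had the smallest spread. These pairs share arrays and were not tested against each other.

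**Figure D1:**
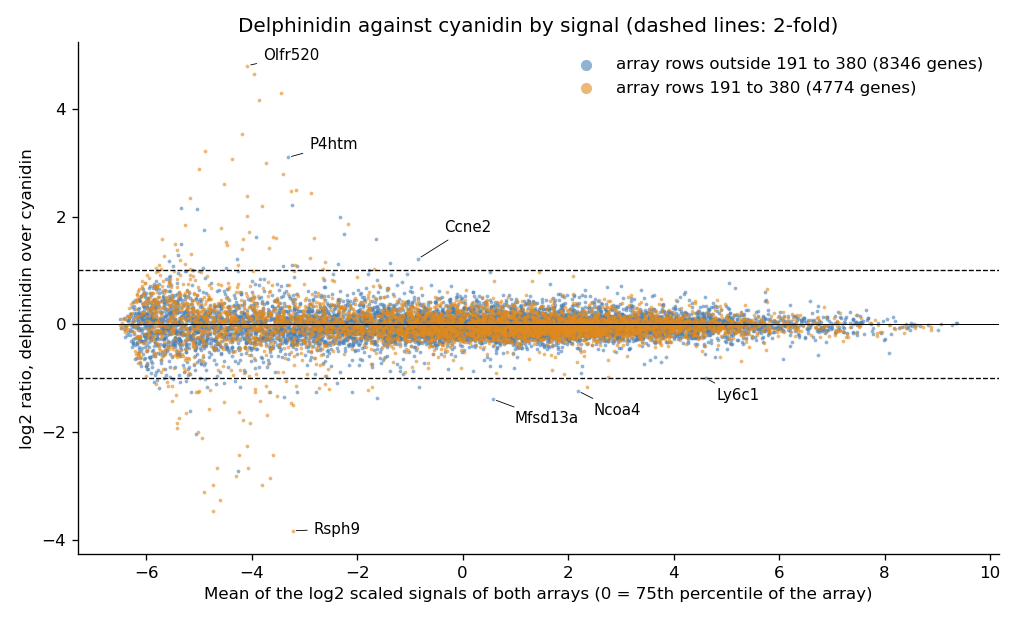
The log2 ratio of delphinidin over cyanidin (vertical axis) is plotted against the mean log2 scaled signal of both arrays (horizontal axis) for 13120 genes, coloured by whether the probe lies in rows 191 to 380 of the array. The points beyond the dashed 2-fold lines lie mostly at low signal, and at signals above 0 the 7258 genes stay close to the zero line, with 0 past 2-fold upwards and 3 past 2-fold downwards.

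How far a ratio spread depended on signal and on position. Among the 7258 genes whose mean log2 signal was above 0, the SD was 0.17, 47 genes had a ratio above 0.5 and 49 a ratio below -0.5. The 5 blocks of rows from row 191 to row 380 held between 1.17% and 3.09% of probes past 2-fold, and the other 9 blocks between 0.197% and 0.800%. Inside these rows 195 of 8695 probes passed 2-fold (2.24%), against 80 of 15015 elsewhere (0.533%). With a mean log2 signal above 0, it was 2 of 3518 probes inside the rows and 2 of 6230 outside. The part that position played in single ratios was not tested, and each paragraph below says which of its genes had their brightest probe in these rows. A probe with several spots was placed by the lowest row number among them, and the rows of its other spots were not used.

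**Figure D2:**
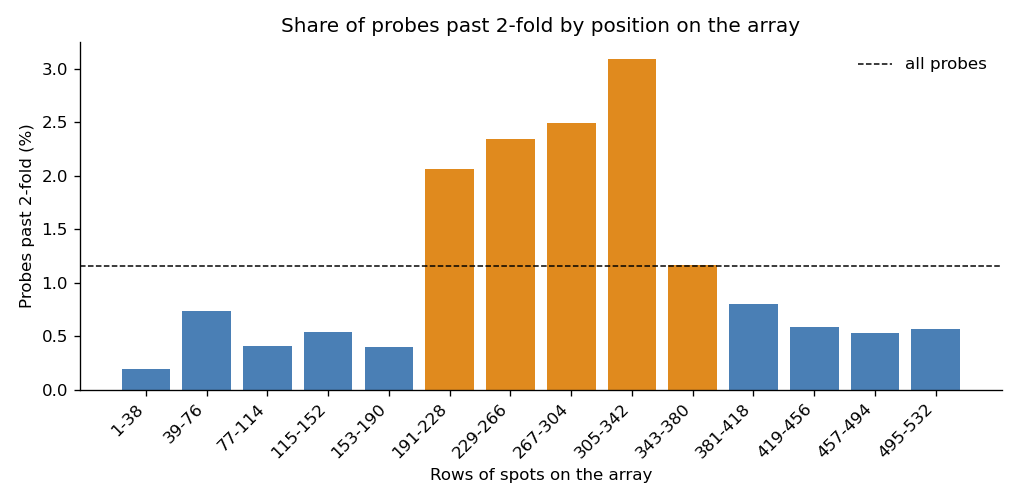
The share of probes past 2-fold between delphinidin and cyanidin (vertical axis, percent, from 0) is shown for 14 blocks of 38 rows of spots. The 5 orange bars from row 191 to row 380 reach 1.17% to 3.09% and the 9 blue bars stay at or below 0.800%, with the dashed line at the 1.16% of all probes.

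Genes of DNA replication all lay above 0, most of them by a small amount. Of 41 genes for the licensing of origins and the synthesis of DNA, 41 were measured and 41 lay above 0, where 43.6% of all genes did. Their median log2 ratio was 0.32 and that of all genes -0.03. The quartiles of the list were 0.25 and 0.41, and the lowest member was Gins4, a subunit of the replicative helicase, with 0.07. Where 0.549% of all genes passed 2-fold upwards, 1 of the 41 did. This was Ccne2, which encodes cyclin E2 of the entry into S phase, and its scaled signal was 0.849 with delphinidin, 0.366 with cyanidin, 0.403 with DMSO and 0.387 with bilberry. Only the delphinidin array was high for Ccne2, and the other 3 lay close together. A second Ccne2 probe gave 0.318 and 0.141, so that both probes differed alike, with log2 ratios of 1.22 and 1.17. The first Ccne2 probe lies on chromosome 4 from 11130171 to 11130230 in mm8, the build of the array files.

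Next in size were Uhrf1 with a log2 ratio of 0.56, Pole and Chaf1b with 0.55 each, Tyms with 0.54 and Gmnn with 0.51. Uhrf1 keeps DNA methylation through replication, Pole is the catalytic subunit of DNA polymerase epsilon, Chaf1b is a chromatin assembly factor, Tyms makes thymidylate and Gmnn encodes geminin, an inhibitor of licensing. Pcna, the sliding clamp of the polymerases, was measured by several spots of the same probe and had scaled signals of 61.8 with delphinidin, 45.9 with cyanidin, 28.2 with DMSO and 59.9 with bilberry. Mcm6, a subunit of the Mcm2-7 helicase, had 63.1, 46.3, 30.6 and 70.5 in the same order. For both of them delphinidin and bilberry were high, DMSO was low and cyanidin lay between. Of the 9 Mcm genes measured 8 lay above 0, from 0.23 for Mcm2 to 0.47 for Mcm3, and Mcm9 had -0.17. Mcm9 is no part of that helicase, but neither are Mcm8 and Mcm10, which had 0.24 and 0.46. For the whole list the median log2 ratio to DMSO was 0.94 with delphinidin and 0.57 with cyanidin, and to bilberry 0.04 and -0.32. These medians share the DMSO and bilberry arrays and are given side by side. Of the genes in this paragraph, Uhrf1, Gmnn and 4 of the 9 Mcm genes (Mcm3 among them) lay in rows 191 to 380. The median of the list without those rows was 0.29.

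Most genes of mitosis lay above 0 as well. Of 40 genes for the spindle, the kinetochore and the mitotic kinases, 39 were measured, 37 lay above 0 and the median was 0.22. Of these 39 genes 0 passed 2-fold, where 1.14% of all genes did in either direction. Smc2, a subunit of condensin, had 0.69 by its brightest probe, with scaled signals of 0.649 and 0.402, and its 4 probes ranged from 0.50 to 0.98. Spc25 of the kinetochore had 0.47, the checkpoint kinase gene Bub1 0.45 and the spindle motor gene Kif11 0.45. Bub1b was the lowest with -0.12, and Mki67, the proliferation marker Ki-67, had 0.28. The probes of Spc25 and Kif11 were in rows 191 to 380. Against DMSO the median of this list was 0.73 with delphinidin and 0.46 with cyanidin. In RNA of a whole culture, a smaller share of cells in a phase and less mRNA in each cell cannot be told apart.

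The promoters of the replication genes were also searched for E2F letters. E2F factors are the transcription factors that switch on S phase genes, and the letters used were TTTCGCGC, TTTCCCGC and TTTGGCGC on both strands within 250 bases before the gene start. They were found in 9 of 31 replication genes with a promoter in the RefSeq table for GRCm38.p6 (29.0%), against 480 of 27025 genes in that table (1.78%) and 1 of 34 mitosis genes (2.94%). A match is a description of these letters and not a site. The share describes the list, whatever compound was given, and a link between matches and ratios was not tested. The log2 ratios of the 9 ran from 0.19 for Gins3 to 0.56 for Uhrf1, and Ccne2, the highest of the list, was not among them. Shown here are 3 of the 9, chosen as members with a high ratio (Uhrf1), a high signal (Mcm6) and an origin loading function (Cdc6), each read 5′ to 3′ on the strand of the gene, and the capitals mark the letters searched for. In Mcm6 some of the matches overlap.
Uhrf1, chr17:56304063-56304312, plus strand: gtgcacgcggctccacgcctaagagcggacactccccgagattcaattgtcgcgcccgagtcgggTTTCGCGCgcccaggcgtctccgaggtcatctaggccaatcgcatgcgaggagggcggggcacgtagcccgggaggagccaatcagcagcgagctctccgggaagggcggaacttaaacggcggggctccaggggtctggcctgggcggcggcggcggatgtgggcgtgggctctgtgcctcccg
Mcm6, chr1:128359706-128359955, minus strand: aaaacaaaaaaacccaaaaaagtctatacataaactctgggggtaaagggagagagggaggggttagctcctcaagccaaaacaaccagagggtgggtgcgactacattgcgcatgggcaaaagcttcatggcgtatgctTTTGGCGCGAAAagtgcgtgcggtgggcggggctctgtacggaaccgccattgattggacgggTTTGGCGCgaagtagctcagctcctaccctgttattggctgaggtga
Cdc6, chr11:98907901-98908150, plus strand: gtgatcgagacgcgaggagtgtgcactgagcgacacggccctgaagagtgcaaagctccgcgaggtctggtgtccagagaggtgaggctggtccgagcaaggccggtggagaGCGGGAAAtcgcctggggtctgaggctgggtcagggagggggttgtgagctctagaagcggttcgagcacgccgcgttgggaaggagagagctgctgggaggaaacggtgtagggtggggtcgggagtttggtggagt
The matches start 185 bases before the gene start in Uhrf1, 110, 106 and 47 bases before it in Mcm6 and 138 bases before it in Cdc6. Cdc6, which loads the Mcm2-7 helicase onto origins, had a log2 ratio of 0.35, Uhrf1 0.56 and Mcm6 0.45, and the Cdc6 probe was in rows 191 to 380 as well.

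**Figure D3:**
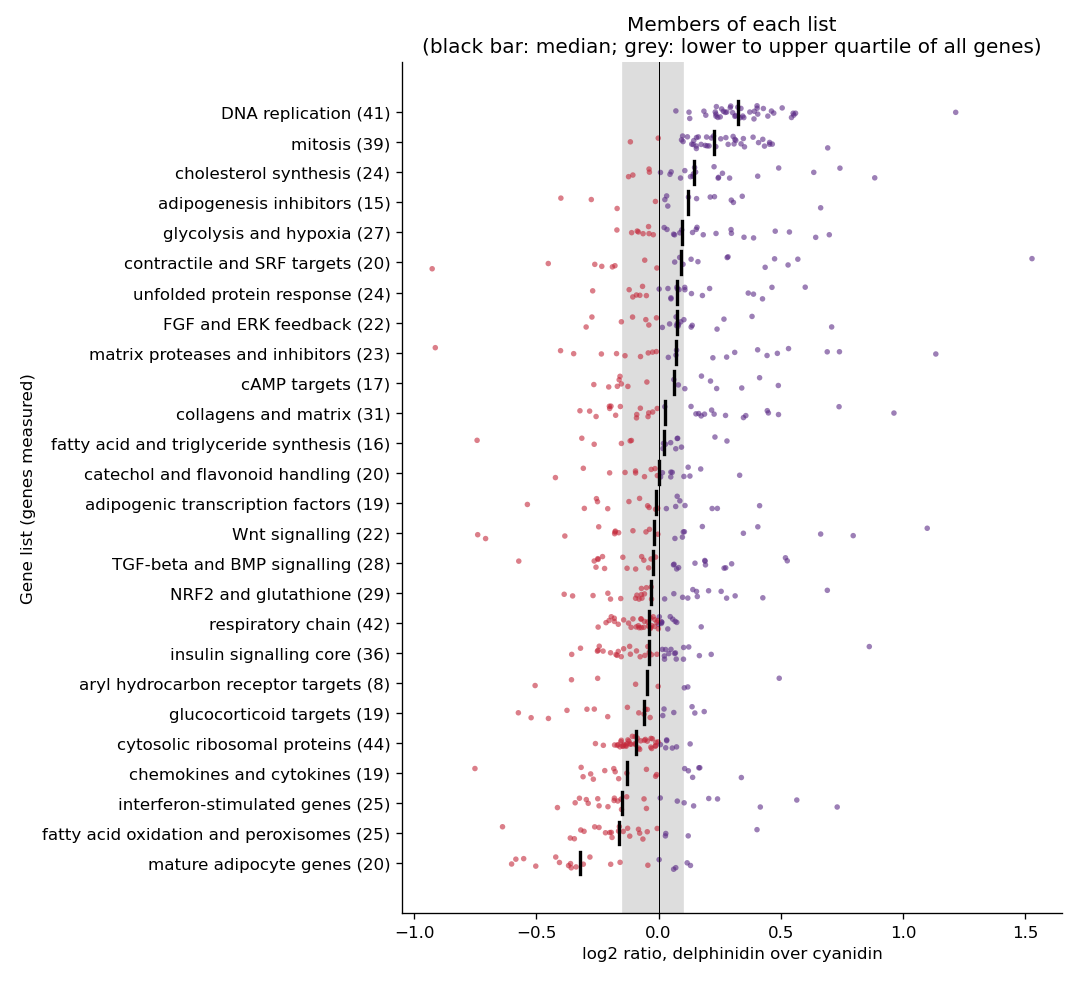
Each point is the log2 ratio of delphinidin over cyanidin (horizontal axis) of a measured gene in 1 of 26 lists (vertical axis, ordered by their median), with purple above 0 and red below. The black bars are medians and the grey band runs from the lower to the upper quartile of all genes, -0.14 to 0.10. All points of DNA replication lie to the right of 0, and 15 of 20 points of the mature adipocyte genes lie to the left.

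Most genes of the mature adipocyte lay below 0. Of 23 such genes 20 were measured, 15 lay below 0 (56.4% of all genes did) and the median log2 ratio was -0.32. No member passed 2-fold in either direction, where 1.14% of all genes did. Plin1, perilipin of the lipid droplet surface, had scaled signals of 7.04 with delphinidin, 10.6 with cyanidin, 6.74 with DMSO and 8.84 with bilberry, a log2 ratio of -0.58. Adipoq, the hormone adiponectin, had 1.02, 1.36, 1.16 and 0.553, a log2 ratio of -0.42. The cyanidin array was the highest of the 4 for Plin1 and Adipoq. Cfd, the adipocyte protease adipsin, had -0.60, the lipid droplet genes Plin2 and Plin4 had -0.37 and -0.36, and the lipases Lipe and Pnpla2 had -0.41 and -0.36. Slc2a4, which encodes GLUT4, the glucose transporter that answers to insulin, had -0.34 and scaled signals of 0.281 and 0.356. Cidea had -0.55 but was dim at 0.0199 and 0.0292, and had -0.18 with normexp, a model-based background correction run as an alternative. At the other end Cd36, a fatty acid carrier, had 0.13, Acsl1 0.12 and Lpl, lipoprotein lipase, -0.04. The probes of Plin1, Cfd, Cd36, Acsl1 and Lpl lay in rows 191 to 380, and without those rows the median of the remaining 11 members was -0.36. Taken against all genes the median was -0.29, and -0.19 with normexp. Against DMSO the list had a median of 0.06 with delphinidin and 0.28 with cyanidin.

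Oxidation of fatty acids showed the same side. Of 25 measured genes 21 lay below 0 and the median was -0.16. Cpt1a, which carries out the rate-limiting entry of fatty acids into mitochondria, had scaled signals of 5.11 and 6.57, a log2 ratio of -0.36. Hadh and Acadm, both enzymes of beta-oxidation, had -0.34 and -0.32. Abcd2, a peroxisomal transporter, had 0.40 but at signals of 0.0269 and 0.0203, and 0.18 with normexp. Genes of fatty acid and triglyceride synthesis did not share this side. Their median was 0.02 over 16 genes (0.05 without rows 191 to 380), Fasn, fatty acid synthase, had 154 and 152, and Thrsp was the lowest with -0.74 at a dim probe in rows 191 to 380.

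The factors that drive adipocyte differentiation differed little. Ppar γ (Pparg) had scaled signals of 19.8 with delphinidin and 19.9 with cyanidin, C/ebp α (Cebpa) 5.62 and 6.11, C/ebp β (Cebpb) 115 and 97.4 and C/ebp δ (Cebpd) 105 and 102. Klf5, an activator of Pparg, had 5.43 and 5.11, and Srebf1, the gene of Srebp1c, had 36.3 and 43.3. Their log2 ratios ran from -0.25 for Srebf1 to 0.24 for Cebpb. The software's own error of a log2 ratio was about 0.20 for bright probes, and Pparg, Cebpa, Cebpd and Klf5 lay within it while Srebf1 and Cebpb lay just beyond. Pparg was measured by 9 and 10 spots, which gave an interval of -0.03 to 0.02 for its log2 ratio. Over the 19 measured adipogenic factors the median was -0.01, with Klf15 lowest at -0.54 (scaled signals of 0.0347 and 0.0503, and -0.25 with normexp) and Ppargc1a highest at 0.41. Among 15 inhibitors of adipogenesis 11 lay above 0 with a median of 0.12, among them Dlk1, the preadipocyte factor Pref-1, with 0.34 and Wnt5a with 0.66, which was 0.28 with normexp. Without rows 191 to 380 the median of the inhibitors was 0.04 and that of the factors -0.04, and Cebpa, Klf5 and Ppargc1a lay in those rows.

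Insulin signalling genes lay on both sides of 0. Over 36 core genes the median was -0.04, with 15 above 0 and 21 below. Irs1, the receptor substrate, had 6.38 with delphinidin and 5.50 with cyanidin, and Insr, the receptor, had 0.363 and 0.387. Their log2 ratios were 0.22 and -0.09 at probes in rows 191 to 380. A second probe gave 0.11 for Irs1 and -0.36 for Insr. Pik3cb, a catalytic subunit of PI3-kinase, stood apart with 0.86, from scaled signals of 0.215 and 0.118 at a probe in the same rows. Fabp4, a fatty acid-binding protein of adipocytes, had 231 and 258, a log2 ratio of -0.16 that became 0.01 with quantile normalization. The RT-PCR reference gene of the study, Actb, had 2.63 and 2.69 at a probe with 9 and 10 spots, a log2 ratio of -0.03, while a brighter probe, named by symbol only and placed on chromosome X, gave 0.09. Leptin (Lep) was not well above background on either array.

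Most cholesterol genes lay slightly above 0. Of 24 measured genes for synthesis and uptake 20 did, against 43.6% of all genes, the median was 0.14, and 0 passed 2-fold upwards, where 0.549% of all genes did. Hmgcs1, an early enzyme of the pathway, had scaled signals of 28.2 with delphinidin and 23.1 with cyanidin, a log2 ratio of 0.29. Insig1, which holds the SREBP factors in the endoplasmic reticulum, had 0.338 and 0.183, a log2 ratio of 0.88 at its brightest probe in rows 191 to 380, and 0.46 at its other probe. Stard4, a cholesterol carrier, had 0.63. Cyp51 was lowest with -0.12, and the probes of Stard4 and Cyp51 lay in those rows too. Against DMSO the median of the list was 0.24 with delphinidin and 0.00 with cyanidin, and against bilberry -0.26 and -0.51. The letters TCACCCCAC of a sterol response element, which binds SREBP factors, were present in the 250 bases before the start of 1 of 17 of these genes with a promoter (Hmgcs1), against 0.555% of all genes in the table and 1 of 14 mature adipocyte genes (7.14%), a list that lay on the other side. The Hmgcs1 promoter is shown because it was the only match in the cholesterol list, with these letters in capitals, 137 bases before the gene start.
Hmgcs1, chr13:119690101-119690350, plus strand: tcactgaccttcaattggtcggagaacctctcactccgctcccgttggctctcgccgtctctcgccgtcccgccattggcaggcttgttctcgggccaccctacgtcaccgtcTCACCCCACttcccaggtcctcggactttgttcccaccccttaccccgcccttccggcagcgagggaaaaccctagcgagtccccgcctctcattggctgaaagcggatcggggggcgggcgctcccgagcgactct

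Genes of the glucose pathway and of hypoxia had a median of 0.09 over 27 genes, of which 19 lay above 0. Slc2a1, the basal glucose transporter GLUT1, had scaled signals of 13.1 with delphinidin, 8.37 with cyanidin, 9.01 with DMSO and 25.5 with bilberry. It was 1.56-fold higher with delphinidin, and Ndrg1 and Pdk1, both targets of hypoxia-inducible factor, had log2 ratios of 0.54 and 0.48. Gapdh had -0.11 and Pgk1 -0.09. The Ndrg1 probe was in rows 191 to 380.

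**Figure D4:**
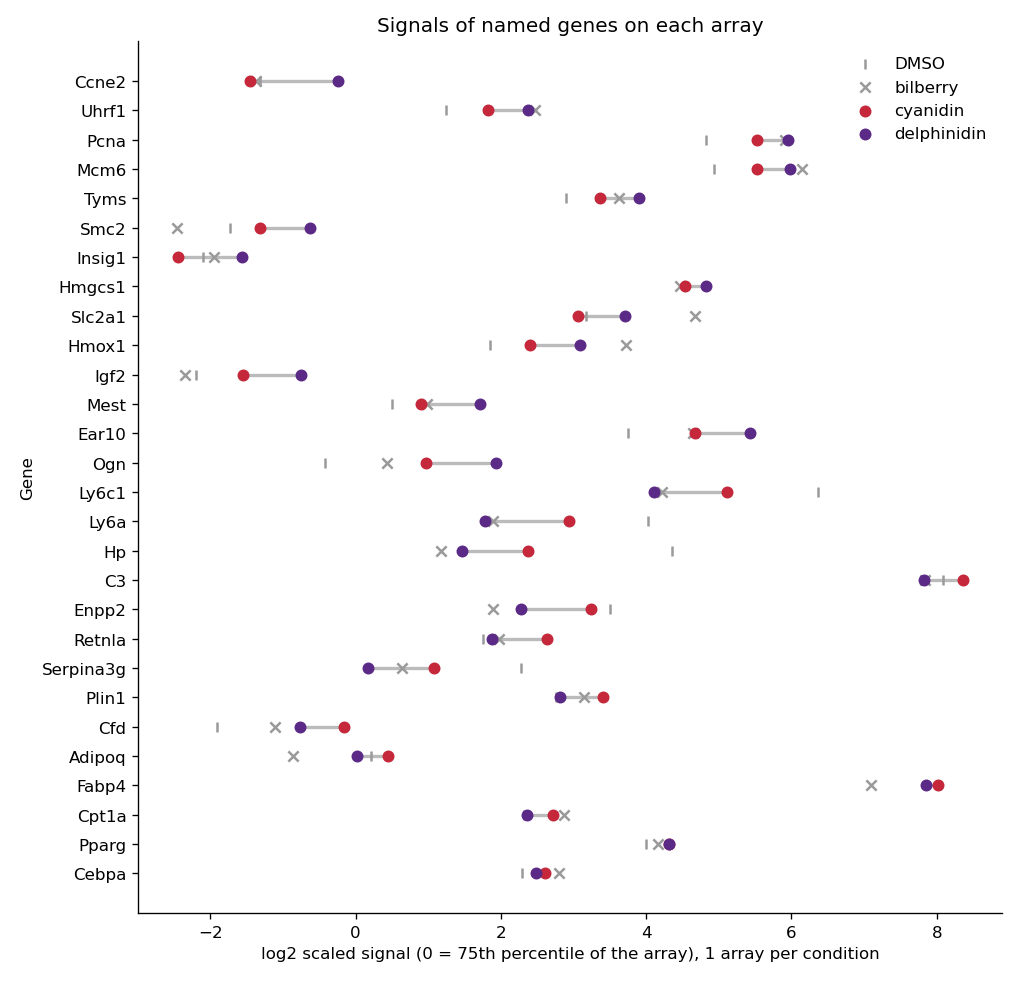
The log2 scaled signal (horizontal axis) of selected genes is shown on each array, with delphinidin in purple, cyanidin in red and grey marks for DMSO and bilberry, and 1 array per condition. Cell cycle and cholesterol genes have the purple point to the right, from Ly6c1 to Cpt1a it lies to the left, and for Pparg and Cebpa both points nearly meet.

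The bright genes that differed most were chosen after their values were seen. At a mean log2 signal above 0, the 3 genes past 2-fold were all lower with delphinidin. Mfsd13a had scaled signals of 0.924 with delphinidin, 2.42 with cyanidin, 4.25 with DMSO and 1.56 with bilberry, a log2 ratio of -1.39. Ly6a, the surface antigen Sca-1 of stem and stromal cells, had 3.43, 7.69, 16.3 and 3.72, a log2 ratio of -1.16 at a probe in rows 191 to 380. Delphinidin and bilberry were low for Ly6a, DMSO was high and cyanidin lay between. Ncoa4, the receptor for the autophagy of ferritin, had 2.97 with delphinidin and 6.98 with cyanidin, a log2 ratio of -1.23, but its other probes gave -0.12 and -0.06, so that its probes disagree.

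The genes of this paragraph and the next were put together after their values had been seen, and most of them were lower with delphinidin. Ly6c1, a surface protein next to Ly6a on chromosome 15, had scaled signals of 17.3 with delphinidin, 34.6 with cyanidin, 82.4 with DMSO and 18.6 with bilberry. It was just short of 2-fold lower with delphinidin, and a second probe gave a log2 ratio of -1.49. Of 11 measured Ly6 genes 7 lay below 0 and 4 above, up to 0.55 for Ly6m (in rows 191 to 380), with a median of -0.36 that was -0.07 with normexp, where Ly6m had 0.20. All 7 measured Serpina3 genes, protease inhibitors that include antichymotrypsin, lay below 0 with a median of -0.91. Serpina3k had 0.0548, 0.138, 0.458 and 0.0645 in the order delphinidin, cyanidin, DMSO and bilberry, and both of its probes passed 2-fold, with -1.33 and -1.26, but its brightest gave -0.73 with normexp. Serpina3g, the brightest of them, had 1.13, 2.11, 4.82 and 1.56, a log2 ratio of -0.91. Again DMSO was the highest array and delphinidin the lowest for both, and both probes, like 3 of the 7 in this family, lay in rows 191 to 380.

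All 13 measured Klra genes, the Ly49 receptors of natural killer cells, lay below 0 with a median of -0.57, and 2 of them passed 2-fold (Klra8 with -1.15 and Klra10 with -1.30, which were -0.50 and -0.40 with normexp), where 0.587% of all genes did in this direction. In rows 191 to 380 lay 5 of the 13, Klra10 among them. Klra3 had 0.623, 1.1, 1.74 and 0.316 and Klra5 had 0.334, 0.633, 0.901 and 0.161, in the order delphinidin, cyanidin, DMSO and bilberry. The Serpina3, Klra and Orm genes are families of related copies, and whether their probes share signal was not tested, so the number of genes that differ is uncertain. The 3 Orm genes (orosomucoids, acute phase carriers) had -0.84 to -0.89. Haptoglobin (Hp) had 2.76, 5.18, 20.5 and 2.26 in the same order, a log2 ratio of -0.91. Complement C3, among the brightest genes of the array, had 227, 328, 271 and 230, a log2 ratio of -0.53, and C4b had -0.79. Lcn2, which binds bacterial siderophores, had -0.52, the chemokine gene Cxcl13 -0.81 and Retnla -0.76, with -0.83 at its second probe. Enpp2, the enzyme autotaxin that makes lysophosphatidic acid, had 4.83 with delphinidin and 9.43 with cyanidin, a log2 ratio of -0.97. Saa3, an acute phase gene like Hp, had 0.14 and lay on the other side. Hp, C4b, Enpp2, Orm1 and Orm3 had their probes in rows 191 to 380.

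The lists for inflammation had medians a little below 0. Over 19 chemokines and cytokines the median was -0.13, with Il1rn, the antagonist of the interleukin-1 receptor, lowest at -0.75 and Ccl11 highest at 0.34 (0.14 with normexp). Over 25 interferon-stimulated genes it was -0.15, with Gbp2 at -0.41, whereas Ifit3 and Oasl1 had 0.73 and 0.57 (0.46 and 0.11 with normexp), and these 3 probes lay in rows 191 to 380. Taken against all genes both medians shrank with normexp, from -0.10 to -0.05 for the chemokines and cytokines and from -0.12 to -0.03 for the interferon genes. Not 1 gene of either list passed 2-fold, where 1.14% of all genes did in either direction.

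Among bright genes higher with delphinidin none passed 2-fold. Ogn, a small matrix proteoglycan called osteoglycin, had scaled signals of 3.83 with delphinidin, 1.96 with cyanidin, 0.750 with DMSO and 1.35 with bilberry, a log2 ratio of 0.96. The 4 related ribonuclease genes on chromosome 14 (Ear1, Ear6, Ear10 and Rnase2a, the eosinophil-associated ribonucleases) had log2 ratios of 0.61 to 0.76. Ear10 had 43.0, 25.4, 13.4 and 25.1 in the order delphinidin, cyanidin, DMSO and bilberry, and 0.70 at its second probe. Ang4 and Ang6, angiogenin genes of the same ribonuclease family, had 0.97 and 0.89, but a second Ang4 probe gave -0.06. The other members lay nearer to 0, Ang2 with 0.14 and Ang with 0.16 and, at its second probe, -0.18. Shared signal between these related copies was not tested either. Ptn, the growth factor pleiotrophin, had 68.3 and 43.5, a log2 ratio of 0.65, and Fzd4, a receptor for Wnt ligands, had 1.99 and 1.15, a log2 ratio of 0.80. Ogn, Ang6, Ang, Ptn and Fzd4 were measured in rows 191 to 380.

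The genes of this paragraph, each expressed from 1 parental allele (imprinted), were put together after their values had been seen and are given one by one. Igf2, the fetal insulin-like growth factor, had 0.593 with delphinidin, 0.342 with cyanidin, 0.218 with DMSO and 0.196 with bilberry. Its probes gave 0.80 and 0.79. Mest had 3.28 and 1.87, a log2 ratio of 0.81, Peg3 had 0.69 (0.35 with normexp), H19 had 0.43 and Dlk1, named above, 0.34. Plagl1, a zinc finger factor, had 0.83 at its brightest probe and -0.08 at its other. Cdkn1c and Sgce were near 0 with 0.02 and 0.05, and Ndn lay on the other side with -0.26. Mest, Peg3, H19 and Ndn were measured in rows 191 to 380.

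Genes that handle flavonoids lay on both sides of 0. The list of methylation, glucuronidation, sulfation and transport held 20 measured genes with a median of 0.00, 10 above 0 and 10 below. Abcc3, an efflux pump for conjugates, was lowest with -0.42, and Sult4a1 was highest with 0.33 at a probe in rows 191 to 380. With normexp they had -0.26 and 0.16.

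The aryl hydrocarbon receptor list had a median of -0.05 over 8 genes (-0.09 without rows 191 to 380). Ahr, the receptor itself, was measured by replicate spots and had 0.285, 0.405, 0.695 and 0.431 in the order delphinidin, cyanidin, DMSO and bilberry, a log2 ratio of -0.51. Cyp1b1, an enzyme that this receptor induces, had 18.8 and 24.1, a log2 ratio of -0.36. Aldh3a1, an aldehyde dehydrogenase of the same list, lay on the other side with 0.49, from dim signals of 0.0817 and 0.0580, and 0.31 with normexp. Over 29 genes of the NRF2 and glutathione response the median was -0.03. Hmox1, heme oxygenase 1, stood out in that list with scaled signals of 8.49 with delphinidin, 5.26 with cyanidin, 3.62 with DMSO and 13.2 with bilberry, a log2 ratio of 0.69, while Mgst1 had -0.39 at a probe in rows 191 to 380.

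For the targets of the induction medium the median was -0.06 over 19 glucocorticoid targets and 0.06 over 17 cAMP targets. Without rows 191 to 380 these medians were -0.21 and -0.05, so that the cAMP targets turned to the other side. Mt1, a metallothionein that binds zinc, had 87.6 with delphinidin and 130 with cyanidin, a log2 ratio of -0.57. Adcyap1r1, the receptor for PACAP, was the highest cAMP target with 0.49 at a probe in those rows, and Fos the lowest with -0.26 (-0.13 with normexp).

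For structural and housekeeping genes the medians were -0.09 over 44 cytosolic ribosomal proteins, of which 37 lay below 0, -0.04 over 42 respiratory chain genes, 0.03 over 31 collagens and matrix genes and 0.08 over 24 genes of the unfolded protein response. The ribosomal and respiratory genes spread little, from -0.26 to 0.13 and from -0.25 to 0.17. In the unfolded protein response the chaperone Hsp90b1 had 0.60. Thbs1, thrombospondin 1, had 0.74 among the matrix genes, whose median without rows 191 to 380 was -0.04.

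For the remaining lists the median was 0.07 for 23 matrix proteases and inhibitors, 0.09 for 20 contractile genes, 0.07 for 22 FGF and ERK feedback genes, -0.02 for 22 Wnt genes and -0.02 for 28 TGF-beta and BMP genes. Adamts8, a matrix protease, had scaled signals of 0.568 with delphinidin, 0.259 with cyanidin, 0.0900 with DMSO and 0.30 with bilberry, and both of its probes passed 2-fold, with 1.13 and 1.05. Sfrp2, a secreted inhibitor of Wnt ligands, had 0.155 and 0.0725, a log2 ratio of 1.1 from 1 probe. Cnn1, calponin of contractile cells, had 1.53 from 0.0755 and 0.0262, at a dim probe in rows 191 to 380. Mmp9, the gelatinase, had 0.104 and 0.196, a log2 ratio of -0.91. Etv5, a PEA3 factor, had 0.71 (0.21 with normexp), Id3, a target of BMP, had -0.57 at a probe in rows 191 to 380 and Ccn5 had -0.74. Across all 26 lists, 4 of 641 measured genes were past 2-fold upwards (Cnn1, Ccne2, Adamts8 and Sfrp2) and 0 downwards, against 0.549% and 0.587% of all genes. With normexp background correction Ccne2 alone stayed past 2-fold, with 1.12, and Adamts8 had 0.98, Sfrp2 0.72 and Cnn1 0.69. The constant added in normexp lowers ratios at dim probes by itself, so these values cannot say which differences hold.

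Repeated measurements on the same arrays bear on how precise these ratios are. The array carried some probes as 10 spots each, and 147 of them passed on both arrays. Their spots had a median SD of 0.031 on the log2 scale on either array, which covers the printing and reading of spots and not the culture. Only 1 of the 147 passed 2-fold, and 94 lay within 0.2 of 0 on either side. It was Ngfr, a neurotrophin receptor, with scaled signals of 0.0517 with delphinidin and 0.123 with cyanidin, a log2 ratio of -1.25 and an interval from its spots of -1.32 to -1.17, while another Ngfr probe gave -0.36 and normexp -0.71. Anxa8 had 53.6 and 84.1, a log2 ratio of -0.65 with an interval of -0.68 to -0.62. Pcna had 0.43 with an interval of 0.41 to 0.45, Igf2 0.80 with 0.76 to 0.83 and Mitf, a transcription factor of pigment cells, 0.81 with 0.73 to 0.89. Each interval is 2 standard errors either side.

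**Figure D5:**
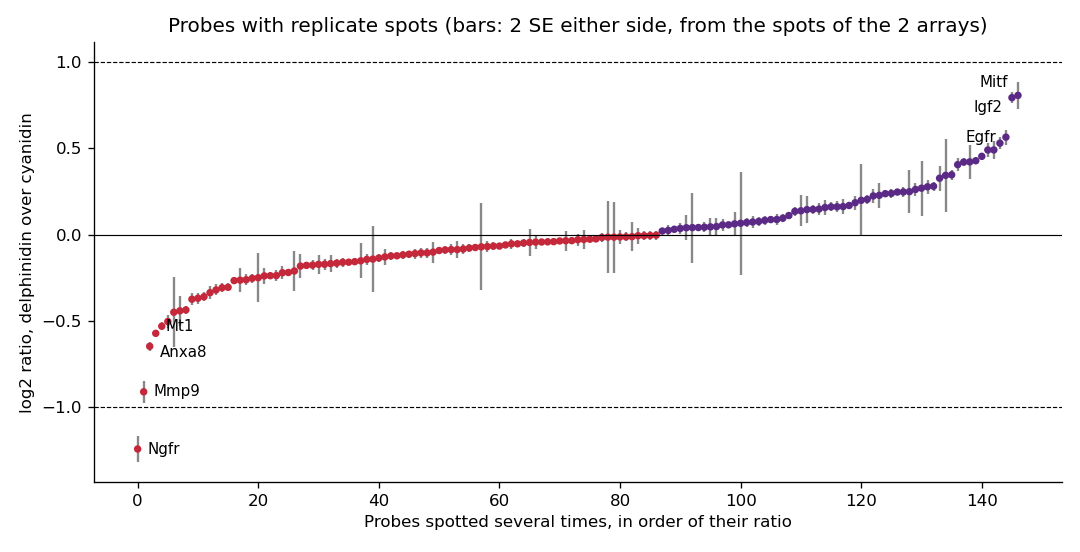
The log2 ratio of delphinidin over cyanidin (vertical axis) of 147 probes with replicate spots is shown in rising order (horizontal axis), with bars of 2 standard errors from the spots. Ngfr alone lies beyond the dashed 2-fold line, at -1.25, and 94 probes lie within 0.2 of 0.

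Different probes of a gene agreed only in part. Of 5576 genes with at least 2 measured probes, 56.8% had all probes on the same side of 0. Of the 149 genes past 2-fold, 125 had a single measured probe, 24 had several, 16 of these had all probes on the same side, and in 3 all probes were past 2-fold (Ccne2, Adamts8 and Serpina3k). Among the genes with several probes and a brightest probe beyond 0.5 in either direction, 116 of 144 had all probes on the same side. Across genes, which are no replicates, the ratio of the brightest probe and that of the next had a Pearson's r of 0.34 over all 5576, 0.46 over 2253 genes with both probes outside rows 191 to 380, and 0.59 over 722 of those with both probes at a mean log2 signal above 0. These points share both arrays.

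By the smallest ratio of its probes, the gene with several probes that stood highest was Ccne2, and Adamts8, Smarca1, Pheta2, Tro, Igf2, Etv5, Ear6 and Ear10 were among the next. Pheta2 had 0.24 at its brightest probe with normexp. Smarca1, a chromatin remodeler on chromosome X, had 0.94 and 0.88. At the other end stood Serpina3k, followed by Ly6c1, Klra5, Mmp9, Trem2, Retnla, Urah, Tnfrsf21, Klra3 and Krt36. Trem2, a lipid receptor of macrophages, had -0.88 and -0.91. Krt36 had -0.42 with normexp, and Tro, Serpina3k and Krt36 had their brightest probes in rows 191 to 380.

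The largest ratios of all belonged to dim probes. The 15 highest genes had log2 ratios from 2.44 to 4.80 and the 15 lowest from -3.83 to -2.11, and in each set 14 of the 15 probes lay in rows 191 to 380. Olfr520, an odorant receptor, was the highest, with scaled signals of 0.312 with delphinidin, 0.0112 with cyanidin, 0.00309 with DMSO and 0.0255 with bilberry. It was followed by 4930562A09Rik with 4.64, 4930503L19Rik with 4.29, Amph with 4.16, Cep135 with 3.52, Nwd1 with 3.21, P4htm with 3.1 (row 416), Chn1 with 3.07, B430319G15Rik with 2.99, Abcc8 with 2.88, Cep128 with 2.79, Olfr373 with 2.61, Foxe3 with 2.48, 4933406P04Rik with 2.47 and 9430085L16Rik with 2.44. Rsph9, a protein of the ciliary radial spoke, was the lowest, with 0.0285 with delphinidin, 0.405 with cyanidin, 0.0508 with DMSO and 0.0532 with bilberry. Above it came Gfra4 with -3.45, Sprtn with -3.25, Ptpn5 with -3.11, Ggt5 with -2.98, 4930483J18Rik with -2.97, Zfp775 with -2.85, Cttnbp2 with -2.81, Muc5b with -2.72 (row 433), Ccr9 with -2.67, Elfn1 with -2.66, Tmprss3 with -2.42, Tmem44 with -2.41, Pate5 with -2.26 and T2 with -2.11. With normexp the 15 highest had 1.06 to 2.53, with a median of 1.65 in place of 3.07, and the 15 lowest -2.33 to -0.71, with a median of -1.24 in place of -2.81. T2, with -0.71, was then no longer past 2-fold. At probes this dim the constant added in normexp shrinks ratios by itself.

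For Olfr520 and Rsph9 a single array was bright and the other 3 were dim. In all 15 of the highest genes and in 14 of the 15 lowest, both the DMSO and the bilberry signal lay nearer to the dimmer of the 2 arrays. Over the genes past 2-fold with a value on all 4 arrays this held for 61 of 98 inside rows 191 to 380 (62.2%) and for 17 of 50 outside them (34.0%). Of the 15 highest genes 4 had several probes, and of the 15 lowest 1 had. The probe nearest to 0 gave 0.51 for 4930503L19Rik, 0.37 for Chn1, 0.23 for Cep128, 0.08 for Cep135 and 0.03 for Sprtn. Outside the rows, Creb3l3, a transcription factor of liver and gut, had 0.560 with delphinidin, 0.186 with cyanidin, 0.895 with DMSO and 0.301 with bilberry, a log2 ratio of 1.59, and Kif12 had 0.376, 0.117, 0.568 and 0.235, a log2 ratio of 1.68. There DMSO and delphinidin were the high arrays.

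Probes detected on only 1 of the 2 arrays give a bound. There were 940 well above background with delphinidin only and 681 with cyanidin only, and the bound (the brighter signal over the dim one, or over the lowest signal detected on the dim array if that was larger) was past 2-fold for 205 and 176 of them. Of these, 164 and 116 lay in rows 191 to 380. The largest bound over all probes was 44.6-fold with delphinidin and 27.0-fold with cyanidin. Among named genes of which no probe was detected on the dim array, the largest with delphinidin were at least 40.9-fold higher for Guca1a, 33.8-fold for Ppp1r3a, 27.5-fold for Iqgap2, 27.4-fold for Tbc1d21 and 25.1-fold for Tcra. With cyanidin they were at least 23.4-fold higher for Glt6d1, 21.1-fold for Mfsd6, 21.0-fold for Meox1, 20.0-fold for Gm7086 and 16.7-fold for Slc16a7. The brighter signals lay between 0.180 and 0.439, so all 10 were dim on the array where they were detected, and all but Ppp1r3a and Meox1 lay in rows 191 to 380.

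Markers of the cell type were in place on both arrays. All 8 preadipocyte markers with a probe value were well above background, among them Col1a2 with 299.7 and 273, Pdgfra with 12.6 and 12.3 and Vim with 140 and 155, and 7 of 8 adipocyte markers were, with Lep as the exception. Their summed scaled signals were 654 with delphinidin and 616 with cyanidin for preadipocyte markers, and 425 and 461 for adipocyte markers. The first of these sums was higher with delphinidin through Col1a1 (a log2 ratio of 0.35) and Col1a2, while Ly6a, Pdgfrb, Vim and Thy1 were lower. Of the macrophage and blood cell markers 4 of 7 were detected, with sums of 0.586 and 0.752, and the defining Ptprc, Adgre1 and Itgam were not. Endothelium had 1 of 5 markers detected, epithelium 1 of 4, skeletal muscle 1 of 5 and neurons 2 of 4, with sums of at most 0.291. The higher sum for blood cell markers with cyanidin came mostly from Cd14, with 0.405 and 0.556, while Lyz2 had 0.0768 and 0.0736. Cd14, Lyz2 and Adgre1 were measured in rows 191 to 380, as were Pdgfrb and Ly6a. The part of these markers in the Serpina3, Klra, Hp and Ly6a differences was not tested.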

How the data were processed

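RNA of 3T3-L1 cells was measured on 1 single-dye Agilent Whole Mouse Genome array per condition. The authors deposited the intensity of every spot as their Feature Extraction software gave it, already corrected for local background and for trends across the array, with surrogate values for spots at or below background. A deposited table of the series held the same processed intensity (largest relative difference 0). The authors' scaling by the 75th percentile is not in these values. No column held their own comparisons.

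Control spots and spots marked as outliers were left out, the remaining signals of each array were divided by their array's 75th percentile over 43379 non-control spots, log2 was taken and spots of a probe were averaged. Probes well above background on both arrays were kept. A gene is its probe with the highest mean log2 signal. The number of arrays limits the precision, no test was made, and the software's signal error and the spread of replicate spots cover an array's spots only. Of 41174 probes 24488 were named by accession and 8625 by current or older symbol in a RefSeq table of GRCm38.p6, 933 kept the file's symbol and 7128 had no name. Coordinates of probes are those of the files (mm8).

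Named are the 15 highest and 15 lowest genes, the 10 highest and 10 lowest by the smallest ratio among genes whose probes share a sign, list genes past 2-fold, genes the study measured or names, and the 5 largest bounds on each side, and other genes were chosen after their values were seen. The comparison, the 26 lists and the markers were chosen with earlier results of these data known. The alternatives were quantile, median and spike-in scaling, loess on signal, centring within blocks of 38 rows, normexp background correction with an offset of 50, marked spots kept, the deposited table, other filters and folds, the mean of probes for lists, and rows 191 to 380 left out, the last chosen after seeing the data. The calculation was tested on simulated data of 23710 probes with the same noise at every signal and row. That checks the calculation and cannot show how many calls in the real arrays are false. The tools were limma 3.58.1 in R 4.3.3 and, in Python 3.11.15, statsmodels 0.14.6, numpy 2.4.6, scipy 1.17.1, pandas 2.3.3 and matplotlib 3.10.9. Values of some single genes are not reported here.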

Additional observations from a re-analysis of the deposited data

How the results depend on the processing

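The counts past 2-fold for delphinidin over cyanidin, 157 probes higher and 118 lower, stayed within 1.5 times under quantile, median and spike-in scaling, loess, centring within blocks of rows, marked spots kept and the deposited table. They were 51 and 26 with normexp background correction, 1426 and 1127 with no filter on detection, 1 and 3 at a mean log2 signal above 0, 621 and 422 at 1.5-fold, 67 and 41 at 3-fold, and 44 and 36 without rows 191 to 380. Of the other pairs, normexp moved delphinidin and DMSO from 681 to 278, cyanidin and DMSO from 656 to 176, delphinidin and bilberry from 2057 to 8121, cyanidin and bilberry from 2270 to 8118, and DMSO and bilberry from 2463 to 7727. The bilberry array held a spot with a local background of 11380 where the highest of the other arrays was 262, and its part in the normexp fit was not tested. For the list medians, taken against all genes, 250 of 260 values moved by less than their error over genes. Lists with a distance over 0.1 from all genes in either direction kept their direction under all 10 alternatives, and for DNA replication the distance ran from 0.32 to 0.36. Some of the alternatives could not move such a distance. Median and spike-in scaling shift all genes alike, and the deposited table holds the same values. Of 6176 values for single genes 87 moved by more than the software's error and 0 of those beyond that error turned their direction. These counts include the same alternatives. For single genes the deposited table changes nothing, and median and spike-in scaling shift every ratio by a constant smaller than that error. Of the 3 dimmest sets of 2371 probes 2.74%, 4.18% and 2.70% were past 2-fold, and 0 of the brightest 2371. At a mean log2 signal of 0 or below it was 3.73% inside rows 191 to 380 and 0.888% outside. No paired analysis was possible because there was 1 array per condition.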
